A study of Mus musculus with 33 samples.

Results

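Expression of 10 genes that mark the cells lining the third ventricle was followed in the mouse hypothalamus after ovariectomy (OVX). The genes were chosen by name, 6 as tanycyte genes (*Rax*, *Col25a1*, *Dio2*, *Crym*, *Gpr50* and *Scn7a*) and 4 as ependymal genes (*Foxj1*, *Ccdc153*, *Tmem212* and *Rarres2*), out of 42824 entries in the deposited expression table. All 10 passed the filter on low values in both regions.

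Tanycytes are elongated, radial glia–like cells of the floor and lower walls of the third ventricle. They send processes to blood vessels and hypothalamic nuclei, convert and transport thyroid hormone, and are known for seasonal and metabolic control of the reproductive and thyroid axes. Ependymal cells cover most of the remaining ventricular wall and move cerebrospinal fluid with motile cilia. Their gene program is switched on by the transcription factor Foxj1 together with RFX factors, which bind X-box elements in the promoters of ciliary genes.

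The study asked how hypothalamic gene expression differs with time after the loss of ovarian steroids. Bulk RNA-seq was performed on the posterior hypothalamus (PH) and the preoptic area (POA) of adult WT C57BL/6 female mice. The intact group held 4 PH and 5 POA libraries, and each OVX group, killed either 14 days or 4 months after surgery, held 6 of each region. Intact mice were killed in diestrus. Mice studied at 4 months were older than the others, so that time after OVX and age cannot be told apart. The titles of the intact libraries call them sham, whereas another label and the methods call them intact. The labels do not say that libraries of a group came from separate animals, so *P* values measure the spread between libraries, which may in part be technical.

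The values are normalized signal on a linear scale, not counts, and the read depth behind them is unknown. Unexpressed genes lie near a floor of 22.2. The means of the regions were nearly equal gene by gene in the table (median absolute difference of 0.05 on the log2 scale over 22092 genes tested), so levels were not compared between regions. In bulk tissue, fewer cells of a type and less RNA per cell cannot be told apart.

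In each region 1 or more libraries stood apart. PH 14-day replicate 5 had a surrogate variable (SV1, the covariate of the main fits of the groups) of 0.79, whereas the other PH libraries lay between −0.31 and 0.19. Its values summed to 72945400 over all entries, against 44534053 (POA 14-day replicate 6) to 54486361 in the other 32 libraries. SV1 followed batch in the other PH libraries, with values of −0.02 to 0.19 in batch 1 and −0.31 to −0.16 in batch 2. It did so in the POA, with values of 0.19 to 0.35 in batch 1 and −0.32 to −0.12 in batch 2. POA 14-day replicate 6 had the highest value of all 4 ependymal genes among the 17 POA libraries, the highest value of 31 of 39 other motile cilium genes and of 5 of 8 fibroblast and meningeal genes, and the lowest value of 6 of 8 neuronal genes. PH intact replicate 1 had the highest PH value of 6 of 8 fibroblast and meningeal genes and of *Ccdc153* and *Rarres2*. Choroid plexus genes varied widely in every group. The summed signal of 10 of them ranged from 3063 to 84156 in the PH and from 3940 to 91359 in the POA, and within each of the 6 groups the highest sum was several times the lowest. The part of the choroid plexus, fibroblast and neuronal signal in the results was not tested.

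No tanycyte or ependymal gene passed the test in any comparison of the groups. At an adjusted *P* under 0.05 (limma with SV1, Benjamini-Hochberg over all genes tested), 0 of 10 were called in each of the 6 comparisons within a region. The share of all tested genes called was also small, at 0% for 14 days versus intact, 0.0319% for 4 months versus intact and 0.00911% for 4 months versus 14 days in the PH. In the POA these shares were 0.00469%, 0.0938% and 0.0281%. At an unadjusted limma *P* under 0.05, 1 member (*Scn7a*) passed in 1 comparison (14 days versus intact in the POA), where 6.14% of all genes did. None passed in the other 5, where the background, in the order above, was 3.04%, 6.06% and 4.09% for PH comparisons and 8.49% and 5.11% for the remaining POA comparisons. Between 4 months and 14 days, the 10 log2 differences ran from −0.24 (*Tmem212*) to 0.51 (*Crym*) in PH tissue and from −0.26 (*Gpr50*) to 0.10 (*Crym*) in POA tissue.

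**Figure D1:**
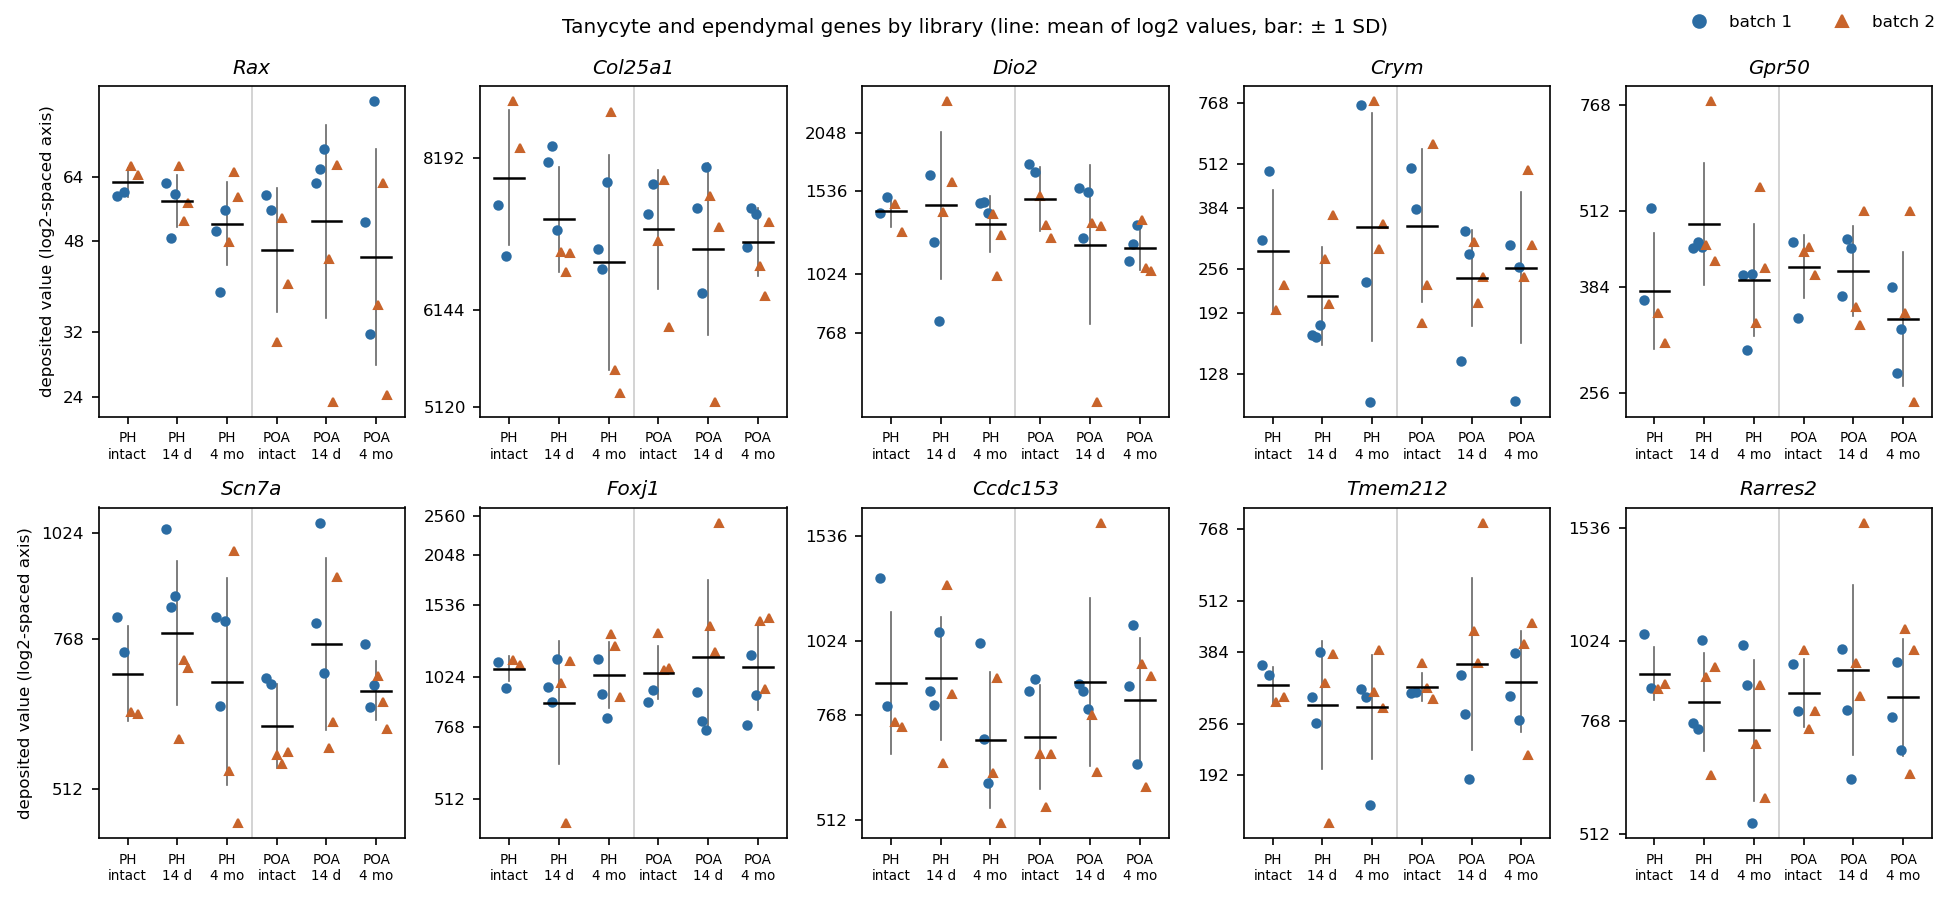
Deposited value (log2-spaced axis) of each of the 10 genes in every library, by region and group, with circles for batch 1 and triangles for batch 2. Lines are means and bars are 1 SD of log2 values. The groups overlap for every gene, and POA 14-day replicate 6 is the highest POA point for *Foxj1*, *Ccdc153*, *Tmem212* and *Rarres2*.

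*Rax*, the retina and anterior neural fold homeobox factor that defines tanycytes, was the lowest of the 10 and close to the floor. It reached 2 times the floor in 15 of 16 PH libraries and 11 of 17 POA libraries, a level at which differences may be compressed. In the PH, the 4 intact libraries were at 58.8, 59.6, 67.2 and 64.4, and the 14-day libraries ran from 48.6 over a median of 58.0 to 67.0. The 4-month libraries ran from 38.3 over a median of 52.7 to 65.2. Thus 5 of 6 libraries at 4 months lay below all intact ones, but the groups overlapped. The difference from intact was −0.28 on the log2 scale (95% CI −0.59 to 0.03, limma, adjusted *P* = 0.838), and −0.32 within batch 1 and −0.21 within batch 2. In the POA, the spread within groups was wider, with libraries between 24.2 and 89.5 at 4 months alone, and the estimates were 0.10 at 14 days and −0.13 at 4 months (SE 0.31 for each), the first of which was −0.09 without POA 14-day replicate 6.

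*Dio2* (GRCm39 chr12:90691322-90705819, minus strand) encodes the deiodinase that converts thyroxine to active triiodothyronine, which in the hypothalamus is a task of tanycytes and astrocytes. The 5 intact POA libraries were at 1757, 1692, 1504, 1307 and 1223. The 14-day libraries ran from 549 over a median of 1309 to 1564, and the 4-month libraries from 1039 over a median of 1140 to 1337. All 6 libraries at 4 months lay below the intact mean and 4 of 6 below every intact library, so the groups overlapped in part. The 549 was that of POA 14-day replicate 5, and the other libraries of its group lay between 1225 and 1564. The log2 difference from intact was −0.37 at 14 days (95% CI −0.79 to 0.04, limma, adjusted *P* = 0.819) and −0.41 at 4 months (95% CI −0.82 to 0.01, adjusted *P* = 0.595). Over 28 alternative fits, the 14-day difference ran from −0.47 to −0.14. The 4-month difference was −0.53 within batch 1 and −0.24 within batch 2. PH estimates were −0.07 and −0.06 (SE 0.18 and 0.17), the first of which was −0.29 within batch 1 and 0.37 within batch 2. PH 14-day values lay between 814 and 2390, the highest of them in the library with the outlying SV1, which belongs to batch 2.

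*Scn7a* (GRCm39 chr2:66503769-66615367, minus strand) encodes the Nax channel, a sensor of sodium in glia of the circumventricular organs. Intact POA libraries were at 692, 681, 561, 548 and 566. The 14-day libraries ran from 572 over a median of 752 to 1055, and the 4-month libraries from 601 over a median of 663 to 758. At 14 days, 4 of 6 libraries lay above every intact library. The log2 difference was 0.29 (95% CI 0.05 to 0.53), which did not hold after adjustment over all genes (limma, adjusted *P* = 0.799), and it was 0.18 without POA 14-day replicate 6. Within batch 1 and within batch 2 it was 0.29. The POA difference at 4 months was 0.10 (SE 0.12), and PH differences were 0.09 and −0.01 (SE 0.18 for each).

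*Gpr50* (GRCm39 chrX:70707272-70712863, plus strand), an orphan relative of the melatonin receptors, was between 247 and 781 in all libraries. PH 14-day replicate 5 was at 781, whereas the other 5 libraries of its group lay between 423 and 455. The log2 difference from intact was 0.27 at 14 days (SE 0.17), 0.23 without that library, and 0.09 at 4 months (SE 0.17). Within batch 1 these differences were 0.05 and −0.25, and within batch 2 they were 0.70 and 0.38. At 4 months, 5 of 6 PH libraries lay below all those at 14 days, with a log2 difference of −0.18 (SE 0.16). POA libraries at 4 months ran from 247 over a median of 337 to 514, against 340 to 456 in the intact group. The log2 difference was −0.28 (95% CI −0.61 to 0.06, limma, adjusted *P* = 0.683). The groups overlapped.

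*Crym* and *Col25a1* are also expressed by neurons. *Crym* (GRCm39 chr7:119785530-119801514, minus strand), the thyroid hormone–binding crystallin mu, had the widest spread, from 107 to 776 among the 6 PH libraries at 4 months, and its estimates had SEs of 0.39 to 0.50 in comparisons with intact mice, with groups that overlapped throughout. Log2 differences from intact at 14 days and 4 months were −0.31 and 0.20 for PH libraries and −0.49 and −0.38 for POA libraries. The PH values were −1.21 and −0.55 within batch 1 and 0.36 and 1.01 within batch 2, and the POA value at 4 months was −1.11 within batch 1 and 0.19 within batch 2. *Col25a1* (GRCm39 chr3:129925150-130393532, plus strand), a transmembrane collagen, varied less, by at most 1.70-fold within a group. Its values ran from 5257 to 9130 in the PH and from 5167 to 8058 in the POA, and the largest log2 difference from intact was −0.23 (PH, 4 months, 95% CI −0.51 to 0.04, limma, adjusted *P* = 0.865), which was −0.01 within batch 1 and −0.46 within batch 2. The PH difference at 14 days was −0.12, with 0.14 within batch 1 and −0.37 within batch 2.

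Across the 6 tanycyte genes, the median log2 difference from intact was −0.07 for the PH and −0.04 for the POA at 14 days. At 4 months it was −0.03 for the PH and −0.21 for the POA, where 5 of 6 estimates were negative. The median over all genes tested was between −0.01 and 0.00 in these comparisons. The 2 POA comparisons share their intact libraries, as do the 2 PH comparisons.

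The 4 ependymal genes had estimates of 1 sign within a region at 4 months. In the PH all 4 were negative against intact, with a median log2 difference of −0.25, and in the POA all 4 were positive, with a median of 0.14. None was called. The POA set includes *Rarres2* at 0.02, whose sign turned in 10 of 28 alternative fits (−0.12 to 0.15), and *Ccdc153* was at −0.04 within batch 1. Within batch 2, *Foxj1* and *Tmem212* were above 0 in the PH (0.03 and 0.13). The PH estimates rested in part on PH intact replicate 1, without which they were 0.01 for *Foxj1*, −0.15 for *Ccdc153*, −0.08 for *Tmem212* and −0.21 for *Rarres2*. At 14 days the medians were −0.10 in the PH (1 of 4 positive) and 0.24 in the POA (4 of 4 positive).

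*Foxj1* (GRCm39 chr11:116221530-116226225, minus strand) switches on the genes of motile cilia. In the PH, the intact libraries were at 1115, 962, 1124 and 1093, the 14-day libraries ran from 445 over a median of 977 to 1131, and the 4-month libraries from 810 over a median of 1028 to 1306. Among POA libraries, the intact ones were at 885, 950, 1312, 1066 and 1074. The 14-day libraries ran from 756 over a median of 1059 to 2461, and the 4-month libraries from 776 over a median of 1057 to 1428. The medians of the 3 POA groups thus differed little, and the highest library carried the 14-day mean. The log2 difference from intact at 14 days was 0.23 (SE 0.17), and 0.05 without POA 14-day replicate 6, and at 4 months it was 0.16 (SE 0.17). PH differences were −0.11 and −0.10 (SE 0.14 and 0.13), the first of which was −0.07 without PH 14-day replicate 5, −0.07 within batch 1 and −0.49 within batch 2.

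*Ccdc153* (GRCm39 chr9:44151973-44158614, plus strand) encodes a coiled-coil protein of the ciliary axoneme. In the PH, the intact libraries were at 1309, 796, 747 and 734, the 14-day libraries ran from 639 over a median of 840 to 1272, and the 4-month libraries from 505 over a median of 657 to 1018. At 4 months 4 of 6 lay below all intact libraries, with a log2 difference of −0.28 (95% CI −0.64 to 0.08, limma, adjusted *P* = 0.871). At 14 days it was −0.11, and −0.19 within batch 1 and 0.25 within batch 2. Intact POA libraries were at 844, 885, 662, 539 and 660, the 14-day libraries ran from 616 over a median of 815 to 1621, and the 4-month libraries from 582 over a median of 876 to 1090. The POA difference was 0.29 at 14 days, 0.04 without the highest library, and 0.19 at 4 months (SE 0.23 for each).

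*Tmem212* (GRCm39 chr3:27915549-27950563, minus strand) encodes a membrane protein of ependymal and other multiciliated cells. In the PH, the intact libraries were at 356, 338, 289 and 298, and the OVX libraries between 146 and 388. Intact POA libraries were at 305, 305, 361, 313 and 295, the 14-day libraries ran from 188 over a median of 348 to 795, and the 4-month libraries from 215 over a median of 341 to 452. The OVX libraries lay on both sides of the intact ones. The POA difference was 0.26 on the log2 scale at 14 days, 0.04 without the highest library, and 0.13 at 4 months (SE 0.24 for each). PH differences were 0.01 and −0.23 (SE 0.18 for each), the second of which was −0.49 within batch 1 and 0.13 within batch 2.

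The promoters of *Ccdc153* and *Tmem212* are shown because both genes encode parts of the ependymal program yet had unlike correlations in the regions. The genes correlated at 0.86 across POA libraries and at 0.03 across PH libraries. The PH value was 0.40 without the library with the outlying SV1 and another library. Whether the promoters bear on these correlations was not tested. Each promoter is given as the 250 bases before and 50 bases after the transcription start. The sequences came from RefSeq (sequence table of build GRCm38.p6) and were placed in GRCm39 by exact match. Capitals mark a match to GTTGCC, the X-box core that RFX factors bind. The *Ccdc153* promoter lies at chr9:44151724-44152023 on the plus strand and the *Tmem212* promoter at chr3:27950468-27950767 on the minus strand.

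Ccdc153: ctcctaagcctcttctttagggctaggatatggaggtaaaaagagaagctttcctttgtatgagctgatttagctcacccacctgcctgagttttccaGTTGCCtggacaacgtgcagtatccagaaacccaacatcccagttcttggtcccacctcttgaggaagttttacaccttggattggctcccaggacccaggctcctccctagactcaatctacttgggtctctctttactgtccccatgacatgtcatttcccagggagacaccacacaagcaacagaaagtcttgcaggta

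Tmem212: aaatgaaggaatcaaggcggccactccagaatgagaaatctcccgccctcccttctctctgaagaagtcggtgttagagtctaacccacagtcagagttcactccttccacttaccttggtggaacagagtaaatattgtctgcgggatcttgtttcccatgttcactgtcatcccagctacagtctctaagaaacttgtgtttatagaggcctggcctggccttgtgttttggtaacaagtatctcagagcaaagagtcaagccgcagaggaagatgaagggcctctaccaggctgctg

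*Ccdc153* held GTTGCC at 152 to 147 bases before the start, and *Tmem212* held none of the 4 motifs searched on both strands. The others were GTAAACA (forkhead factors), TAATTA (homeodomain factors) and AGGTCA (core of the element of nuclear receptors). Promoters were at hand for 6 of 10 members, and the other 4 of these, *Scn7a*, *Col25a1*, *Dio2* and *Gpr50*, held none of the motifs either. Of 27025 promoters of the same length, 12.7% held GTTGCC, 3.55% GTAAACA, 5.31% TAATTA and 16% AGGTCA. Of the promoters of other motile cilium genes, found for 33 of 40, 17 (51.5%) held GTTGCC, 4 (12.1%) GTAAACA, 0 TAATTA and 1 (3.03%) AGGTCA. *Foxj1*, *Rarres2*, *Crym* and *Rax* were not searched.

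*Rarres2* (GRCm39 chr6:48546630-48549762, minus strand) encodes chemerin, a secreted ligand of the receptor Cmklr1. In the PH, the intact libraries were at 1052, 865, 862 and 877, the 14-day libraries ran from 633 over a median of 831 to 1027, and the 4-month libraries from 532 over a median of 790 to 1010. The log2 difference at 4 months was −0.31 (95% CI −0.65 to 0.03, limma, adjusted *P* = 0.839), and it was −0.30 within batch 1 and −0.29 within batch 2. The groups overlapped. POA values lay between 623 and 1569, and the differences were 0.16 and 0.02 (SE 0.18 for each), the first of which was within 0.01 of 0 without POA 14-day replicate 6.

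The sign of all 4 ependymal estimates in the POA at 14 days differed between batches. Within batch 1, *Foxj1*, *Ccdc153*, *Tmem212* and *Rarres2* differed from intact by −0.15, −0.06, −0.24 and −0.13 on the log2 scale, and within batch 2 by 0.47, 0.57, 0.63 and 0.36. The library with the highest values belongs to batch 2.

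**Figure D2:**
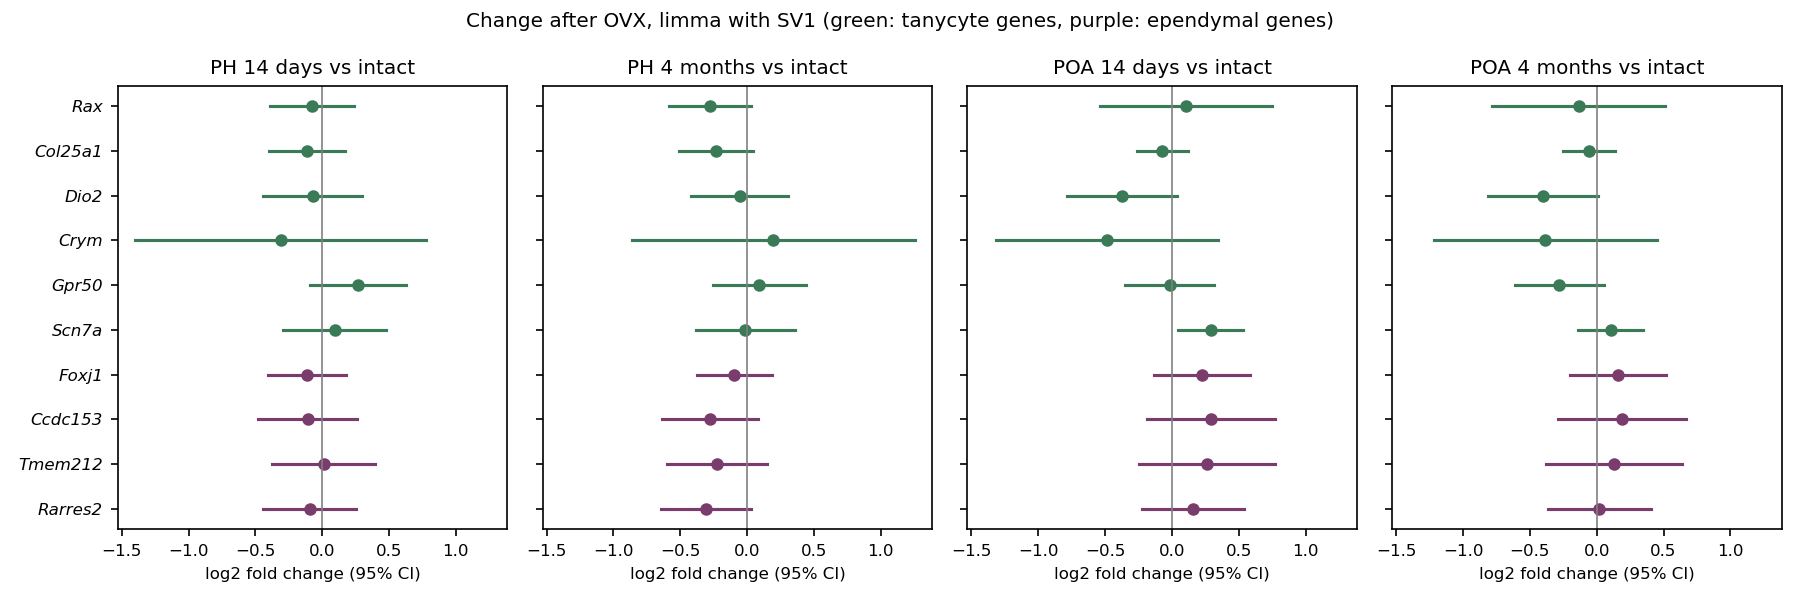
Log2 fold change from intact (x axis) with its 95% CI for the 10 genes in each region and at each time after OVX, from limma with SV1. Of the 40 intervals, only that of *Scn7a* in the POA at 14 days (0.05 to 0.53) leaves out 0, before adjustment over all genes.

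The regions were also compared directly, as the difference of the changes from intact in 1 fit of all 33 libraries. The methods describe PH and POA tissue as collected from the same females, but the labels do not say which libraries share a mouse, so the fit treats all libraries as independent. No member was called at 14 days or 4 months, against a background of 0.00453% and 0.00905% of 22092 genes. None passed at an unadjusted limma *P* under 0.05 either, with a background of 3% and 3.6%. All 4 ependymal genes had a lower estimate in the PH than in the POA at both times (median −0.28 and −0.33 on the log2 scale), the largest being −0.44 for *Ccdc153* at 4 months (95% CI −1.05 to 0.16, limma, adjusted *P* = 1.00). Among tanycyte genes, *Gpr50* had the opposite sign, with 0.36 and 0.39 (SE 0.25 for each). So did *Dio2*, with 0.30 and 0.35 (SE 0.27 for each), and *Crym*, with 0.12 and 0.57 (SE 0.62 and 0.63). *Rax*, *Col25a1* and *Scn7a* had estimates below 0 at both times. The change of the ependymal genes was therefore not shown to differ between the regions. Without POA 14-day replicate 6, their 14-day differences shrank to between −0.14 and −0.07.

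The genes differed widely in level. Per kilobase of the canonical transcript, a length that only approximates the mix of transcripts behind each value, the mean deposited value in the PH was 2783 ± 424 (SD, n = 16 libraries) for *Col25a1*, 1008 ± 189 for *Rarres2*, 768 ± 212 for *Ccdc153*, 395 ± 90.6 for *Tmem212* and 384 ± 76.3 for *Foxj1*. Then came *Dio2* at 220 ± 52.2, *Crym* at 194 ± 121, *Gpr50* at 142 ± 37.9, *Scn7a* at 99.2 ± 20.8 and *Rax* at 22.1 ± 3.08. The order was the same in the POA. The ranges of 1 SD around the means overlapped in both regions between *Rarres2* and *Ccdc153*, between *Tmem212* and *Foxj1*, and between each neighboring pair from *Dio2* to *Scn7a*. They did not overlap between *Col25a1* and *Rarres2*, between *Foxj1* and *Dio2*, or between *Scn7a* and *Rax*. *Ccdc153* and *Tmem212* were apart in the PH and overlapped in the POA.

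Although group means differed little, the ependymal genes varied together from library to library. After subtraction of the mean of each group and batch, the 6 pairs of ependymal genes in the POA had Pearson's *r* between 0.86 and 0.96 (n = 17 libraries, median 0.89). By permutation within group and batch, adjusted over 90 pairs in both regions, 5 of 6 passed at an adjusted *P* under 0.05, and 4 of 6 did so by Spearman's rho. The strongest was *Tmem212* with *Rarres2* (*r* = 0.96, permutation *P* = 0.0004, adjusted *P* = 0.014, rho = 0.94, permutation *P* = 0.0008, adjusted *P* = 0.023). The pair that missed was *Foxj1* with *Ccdc153* (*r* = 0.88, permutation *P* = 0.013, adjusted *P* = 0.126, rho = 0.84, permutation *P* = 0.0083, adjusted *P* = 0.083). Without the 2 libraries farthest from the median of the first gene, which included POA 14-day replicate 6 in all 6 pairs, *r* was between 0.75 and 0.93. The share of pairs among all tested genes with correlations as strong was not computed for either region.

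In the PH (n = 16 libraries), 3 of the 6 pairs passed, those among *Foxj1*, *Tmem212* and *Rarres2*. Again *Tmem212* and *Rarres2* were closest (*r* = 0.90, permutation *P* = 0.0002, adjusted *P* = 0.014, rho = 0.94, permutation *P* = 0.0002, adjusted *P* = 0.018, *r* = 0.87 without 2 libraries). *Ccdc153* did not follow them, with *r* of −0.10 to *Foxj1*, 0.03 to *Tmem212* and 0.41 to *Rarres2* (rho 0.21, 0.24 and 0.41, no adjusted permutation *P* under 0.57). In PH 14-day replicate 5, *Foxj1* at 445 and *Tmem212* at 146 were the lowest of 16 PH values, whereas *Ccdc153* at 1272 was the second highest, and without it and 1 other library the same 3 correlations were 0.48, 0.40 and 0.66.

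The tanycyte genes did not covary in this way. Of 15 pairs, 0 passed in either region, with a median *r* of 0.00 among PH libraries and 0.30 among POA libraries. The highest were *Col25a1* with *Dio2* (*r* = 0.78, permutation *P* = 0.038, adjusted *P* = 0.253, rho = 0.60, permutation *P* = 0.068, adjusted *P* = 0.307) and *Rax* with *Gpr50* (*r* = 0.73, permutation *P* = 0.024, adjusted *P* = 0.212, rho = 0.71, permutation *P* = 0.018, adjusted *P* = 0.159), both in the POA. Between the tanycyte and ependymal sets, 0 of 24 pairs passed in either region. The difference in *r* between the sets was not tested.

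**Figure D3:**
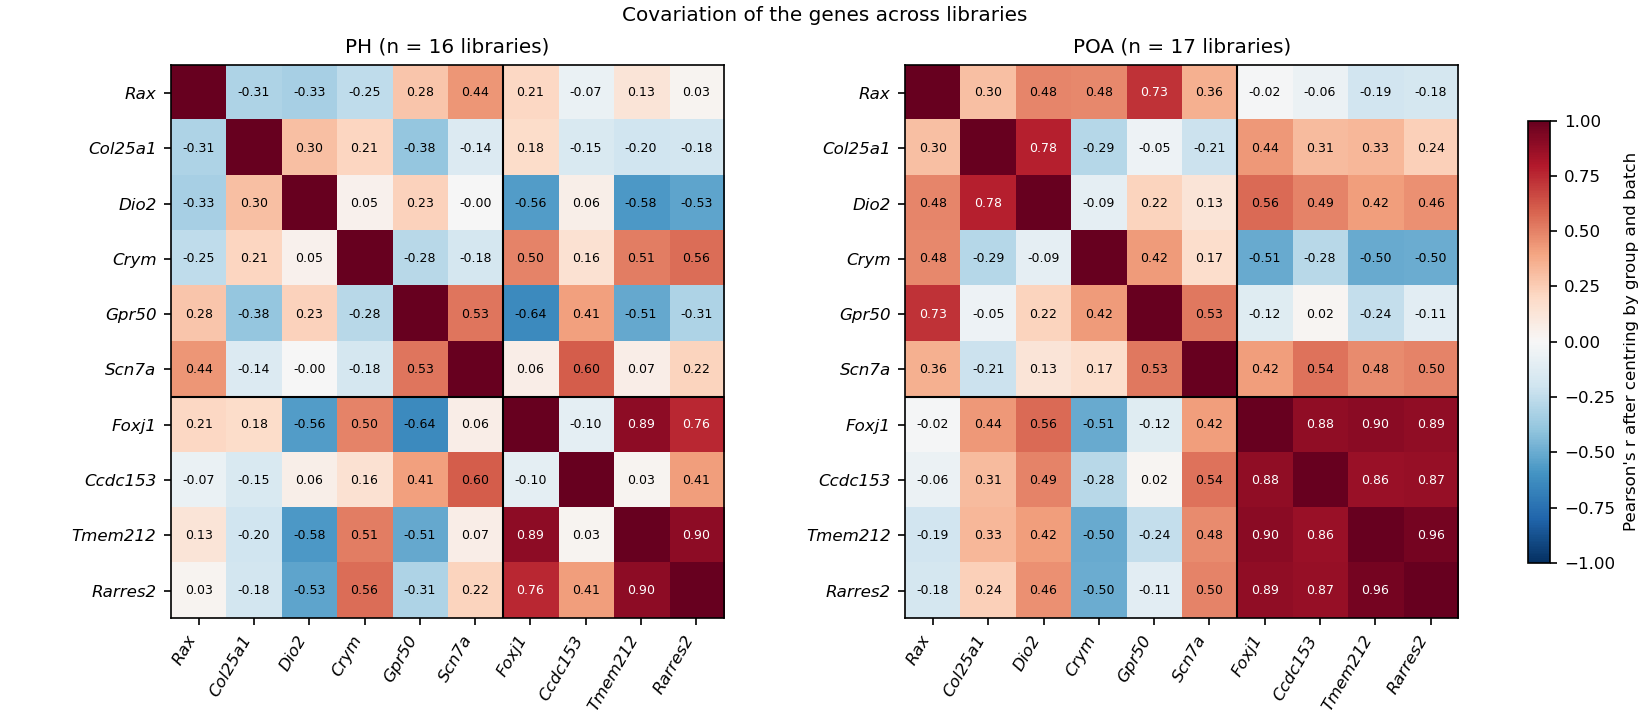
Pearson's *r* between the 10 genes across 16 PH and 17 POA libraries, on log2 values centered by group and batch, with red for positive and blue for negative values and lines separating tanycyte from ependymal genes. The POA block of ependymal genes is red throughout (0.86 to 0.96), and in the PH *Ccdc153* is set apart from the other 3.

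The ependymal genes were next set against 39 tested genes of the motile cilium. The 120 gene-list pairs below also hold lists of other tanycyte genes, fibroblast and meningeal genes and astrocyte genes. Correlations with those lists, and those of the tanycyte members, are not given here. In the POA, the mean of that list correlated with *Ccdc153* (*r* = 0.92, rho = 0.88), *Tmem212* (*r* = 0.91, rho = 0.92) and *Rarres2* (*r* = 0.91, rho = 0.93), each with an adjusted permutation *P* of 0.014 for *r* over 120 gene-list pairs, and without 2 libraries *r* was 0.82, 0.92 and 0.91. For *Foxj1*, *r* was 0.92 with an adjusted permutation *P* of 0.056 (rho = 0.86, adjusted permutation *P* of 0.105). In the PH, *Ccdc153* alone passed (*r* = 0.90, permutation *P* = 0.0015, adjusted *P* = 0.046, *r* = 0.85 without 2 libraries), but not by Spearman's rho (0.86, permutation *P* = 0.0024, adjusted *P* = 0.073). *Foxj1* and *Tmem212* had *r* of −0.12 and 0.09 with the list in the PH, and 0.50 and 0.38 without PH 14-day replicate 5 and 1 other library. No ependymal gene passed with the choroid plexus list, the lowest adjusted *P* being that of *Tmem212* in the POA (*r* = 0.71, rho = 0.68, adjusted permutation *P* of 0.090 and 0.118).

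**Figure D4:**
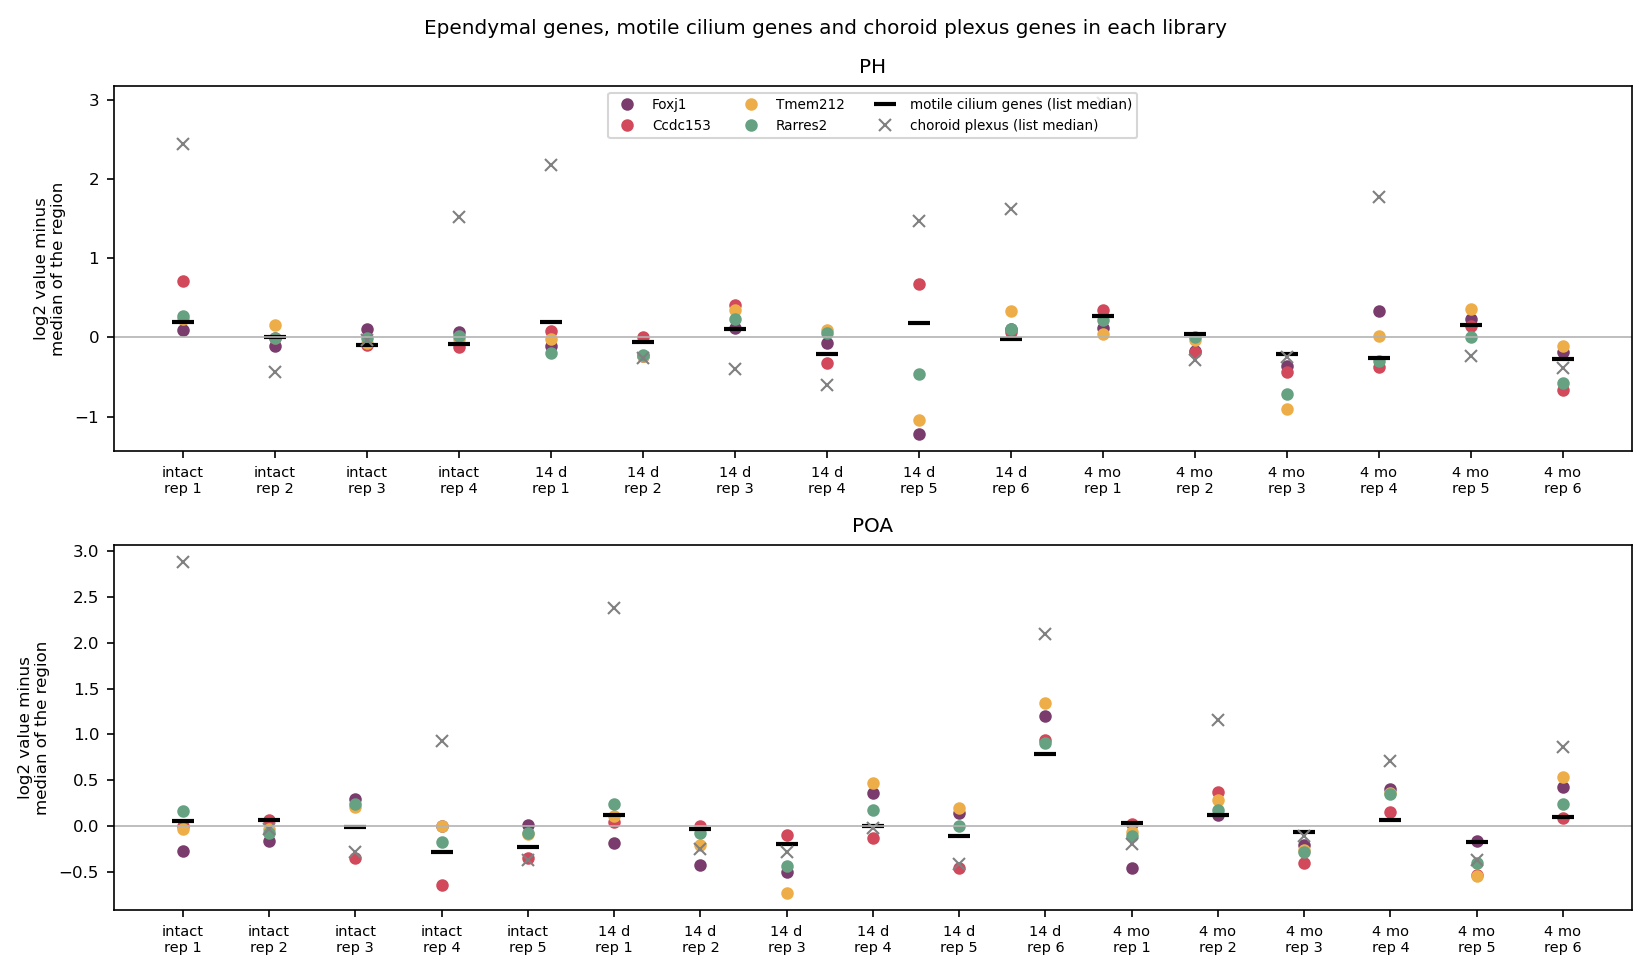
Log2 value of the 4 ependymal genes (colored points), the median over motile cilium genes (black bars) and over choroid plexus genes (gray crosses) in each library, each minus its median over the region. In POA 14-day replicate 6 all 4 points and the bar lie above those of the other POA libraries, and in PH 14-day replicate 5 *Ccdc153* lies above the bar while *Foxj1* and *Tmem212* lie far below it.

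The genes most like the mean of the ependymal genes in the POA were *Cfap126* (*r* = 0.98), *Sntn* (0.98), *Cfap161* (0.97), *Gm19935* (0.97) and *Rsph1* (0.97), over 17 libraries. *Cfap126*, *Sntn*, *Cfap161* and *Rsph1* encode proteins of motile cilia. In the PH they were *Arl6ip1* (0.96), *Bod1* (0.96), *Gm48784* (0.94), *Drc3* (0.94) and *Gm19935* (0.94), of which *Drc3* is a ciliary gene. For the tanycyte mean, the closest included *Atp7a*, *Rny1*, *Gm15880* and *Gm43847* in the PH (*r* of 0.88 to 0.92). In the POA they were *Gm26520*, *Trim56*, *Bsx*, *Gm43300* and *Or13a18* (0.89 to 0.91). These values were picked as the highest of all genes tested and are descriptive.

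Beyond the members, 0 genes of the related lists were called by limma in any comparison. Genes at an unadjusted limma *P* under 0.05 against intact were counted in the order PH at 14 days, PH at 4 months, POA at 14 days and POA at 4 months. Of all genes tested, 3.04%, 6.06%, 6.14% and 8.49% passed. Among the lists, 1, 2, 1 and 1 of 39 motile cilium genes and 1, 1, 0 and 3 of 17 other tanycyte genes passed. So did 1, 1, 1 and 2 of 13 thyroid hormone genes and 2, 1, 1 and 1 of 11 partners and relatives. Among 39 motile cilium genes, the estimate against intact was positive for 32 in the POA at 14 days (median log2 difference 0.14) and for 29 at 4 months (0.07), and for 17 in the PH at either time (−0.03 and −0.01), where the median over all genes was between −0.01 and 0.00. The axonemal gene *Hydin* had the largest POA differences, 0.54 at 14 days and 0.58 at 4 months (SE 0.25 for each, limma, adjusted *P* = 0.806 and 0.539). In the PH at 4 months it was *Spag17*, at −0.45 (SE 0.19, limma, adjusted *P* = 0.750). The 14-day POA values rest in part on replicate 6, which had the highest value for 31 of the 39 genes.

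The median log2 difference from intact of 17 other tanycyte genes was 0.06 for PH libraries at both times, and −0.04 and −0.02 for POA libraries. Adrenomedullin (*Adm*), a vasodilator peptide, had the largest difference, at 4 months in the POA (0.70, SE 0.26, limma, adjusted *P* = 0.438). The intermediate filament gene *Vim* differed by 0.35 in the PH at 4 months (SE 0.11, limma, adjusted *P* = 0.619).

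Thyroid hormone handling, the pathway of *Dio2* and *Crym*, showed 0 of 13 genes called. *Klf9*, a zinc finger factor induced by triiodothyronine, had estimates below 0 in the POA at both times (−0.20 for each, SE 0.07, limma, adjusted *P* = 0.799 and 0.382) and in the PH at 4 months (−0.23, SE 0.10). *Hr*, another target, had the largest difference of the list at 14 days and 4 months, −0.37 and −0.26 for PH libraries and −0.23 and −0.22 for POA libraries (SE 0.13 to 0.18), with a lowest adjusted *P* of 0.699. The inactivating deiodinase *Dio3* differed by 0.33 (SE 0.22) in the PH at 14 days. The medians over the list were 0.07 and 0.00 for PH libraries and −0.07 and −0.03 for POA libraries.

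Of 11 tested partners and relatives of the members, *Cmklr1*, the receptor of the *Rarres2* product, had the largest differences from intact in both regions at both times. They were 0.47 and 0.42 in the PH (SE 0.16 for each, limma, adjusted *P* = 1.00 and 0.701) and 0.25 and 0.32 in the POA (SE 0.21 for each). The ligand had estimates of −0.09 and −0.31 in the PH. *Cmklr1* did not pass the adjustment, and its difference between the regions was not called.

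Batch, as the labels give it, moved with 1 member. In the POA, *Foxj1* was higher in batch 2 (1361 ± 445, SD, n = 9 libraries) than in batch 1 (898 ± 131, n = 8), a log2 difference within groups of 0.57 (SE 0.15, limma without SV1, adjusted *P* = 0.006). This was 1 of 10 members, while 39.8% of all POA genes were called between batches. Without POA 14-day replicate 6, *Foxj1* differed by 0.44 (limma, adjusted *P* = 0.001), and *Scn7a* (−0.28, adjusted *P* = 0.009) and *Rax* (−0.66, adjusted *P* = 0.028) were lower in batch 2, 3 of 10 members at a background of 40.3%. In the PH, 0 of 10 members were called between batches and 1.28% of all genes were. Every group holds libraries of both batches.

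Markers of other cells were followed beside the members. Against intact, the 8 fibroblast and meningeal genes were all positive in the POA, with median log2 differences of 0.37 at 14 days and 0.20 at 4 months, and the summed signal ran from 4135 to 11049 in intact, 6376 to 13967 at 14 days and 5186 to 9286 at 4 months. Their PH medians were 0.00 at both times. The 10 choroid plexus genes had medians of −0.49 and −0.24 for PH libraries and 0.04 and −0.11 for POA libraries, and transthyretin (*Ttr*) had SEs of 1.48 to 1.93. Astrocyte genes (medians 0.00, −0.07, −0.03 and −0.05, in the order PH at 14 days, PH at 4 months, POA at 14 days and POA at 4 months) and neuronal genes (−0.03, −0.03, −0.06 and −0.05) lay close to 0. None of these genes was called. With the neuronal list, 0 ependymal genes passed in either region over the 120 gene-list pairs. The lowest adjusted *P* was that of *Tmem212* in the PH (*r* = −0.88, permutation *P* = 0.0038, adjusted *P* = 0.076, rho = −0.84, permutation *P* = 0.0078, adjusted *P* = 0.118, *r* = −0.82 without 2 libraries). There *r* was −0.78 for *Foxj1* (rho = −0.59, adjusted permutation *P* of 0.321 and 0.347, *r* = −0.38 without 2 libraries), −0.63 for *Rarres2* (rho = −0.71, adjusted permutation *P* of 0.178 and 0.172) and 0.26 for *Ccdc153* (rho = 0.09, adjusted permutation *P* of 0.797 and 0.898).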

How the data were processed

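Normalized expression of 33 bulk RNA-seq libraries was analyzed. The authors prepared stranded mRNA libraries from flash-frozen tissue, pseudoaligned reads to the mouse transcriptome (mm39) with kallisto, imported them with tximport and used DESeq2 with SV1. The deposited values are normalized signal on a linear scale, between 9.94 and 3687693, with 0.000219% whole numbers. The step that made them from counts is not given in the sources used here, so no count test was run.

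The deposited signal was set on a log2 scale with no pseudocount. Named genes at 2 times the floor or more in at least 4 PH or 5 POA libraries were tested (21950 and 21320 genes). Left out were 1259 entries that lack a gene name and *Lhb*, which has more than 1 entry. Fits used limma 3.58.1 in R 4.3.3 with trend and robust variance, the 3 groups of a region and SV1, re-estimated in base R with 5 rounds. The comparison of batches held batch in place of SV1. Adjustment over all genes followed Benjamini and Hochberg. Correlations used 100000 permutations within group and batch in Python 3.11.15 (scipy 1.17.1). Scripts were tested on simulated data. Gene positions and canonical transcripts came from GENCODE M39 (GRCm39).

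The members and the 13 gene lists were chosen with earlier results of these data known. All 10 members are named. Of other lists, called genes and the 2 largest differences per comparison may be named, and the 5 genes most like each set, of which 1 is not reported here. The comparison of batches, the correlation of members with lists and the counts of wider lists under the alternatives were added after the data were seen. Alternatives were other covariates, a replicate block, fewer libraries, single batches, no filter, an added floor, equal library medians, another variance model and each library left out.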

Additional observations from a re-analysis of the deposited data

Results flagged for a closer look

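Within each group of 4 to 6 libraries, the gap between the most extreme library and its nearest neighbor was compared with the range of the group. Of 60 gene and group combinations, 8 had 1 library farther from the rest than Dixon's 95% critical value, where chance gives about 1 in 20, or 3 of 60. The 10 genes are measured in the same libraries, so these are not 8 independent events.

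Of the 8, 2 concern PH 14-day replicate 5, the library with the outlying SV1. *Gpr50* was at 781 there against 423 to 455 in the other 5 libraries, and *Foxj1* at 445 against 885 to 1131. Another 2 concern PH intact replicate 1, in which *Ccdc153* was at 1309 against 734 to 796 and *Rarres2* at 1052 against 862 to 877, and the summed choroid plexus signal was 64965, the highest of the 4 intact PH libraries. *Ccdc153* was at 1621 in POA 14-day replicate 6 against 616 to 867. The remaining 3 were *Dio2* at 549 in POA 14-day replicate 5 against 1225 to 1564, *Tmem212* at 162 in PH 4-month replicate 3 against 280 to 388, and *Tmem212* at 361 in POA intact replicate 3 against 295 to 313. The cause of these values was not tested.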

How the results depend on the processing

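The count of members called stayed at 0 in all 241 reruns of the 8 comparisons, from 0 to 0 when single libraries were left out and 0 under each of the 11 other settings. The smallest adjusted limma *P* of a member over all reruns was 0.167, for *Dio2* in the POA at 4 months without POA 14-day replicate 5, and the range for *Dio2* in that comparison was −0.53 to −0.24. Of 2410 reruns of single log2 differences, 2385 moved by less than 1 SD and 25 by more, 23 of them in single batches. A value could change sign and still lie within 1 SD, as *Ccdc153* did in the POA at 14 days (0.29, and −0.06 within batch 1). The sign turned most often for *Tmem212* in the PH at 14 days versus intact (11 of 27 reruns). It turned in 10 of 28 for *Rarres2* in the POA at 4 months and in 9 of 27 for *Foxj1* in the PH between 4 months and 14 days. Others, such as *Dio2* in the POA at 4 months, kept their sign in all 28. Of the wider lists, 0 genes were called in the comparisons as reported. When single libraries were left out, the counts ran from 0 to 2 in the PH at 4 months versus intact (*Flt1* and *Kdr* without 4-month replicate 2), from 0 to 2 in the POA at 4 months versus intact (*Flt1* and *Kdr* without 4-month replicate 4, and *Cartpt* without 4-month replicate 5), and from 0 to 1 in the difference between the regions at 4 months (*Cartpt* without POA 4-month replicate 5). Centering by group alone, in place of group and batch, moved the median *r* of the ependymal pairs in the POA from 0.89 to 0.80.

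With a replicate block, 0 members were called in each of the 8 comparisons. For libraries that share a replicate number, the correlation of their deviations from the group means ran from −0.18 to 0.39 in the PH (median 0.15, against −0.05 for other numbers), from −0.31 to 0.39 in the POA (0.26 against −0.15) and from −0.33 to 0.45 between the regions (0.23 against −0.06). No label ties a number to a mouse, so the numbers were not treated as pairs. Most libraries that share a number also share a batch, so these correlations cannot tell a shared mouse from a shared batch. Under the block, *Scn7a* in the POA at 14 days differed by 0.30 (limma, adjusted *P* = 1.00).

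Depth is unknown, the table keeps no counts, and the step behind its values may have altered differences between libraries. With 4 to 6 libraries per group, the 95% CI of a member's log2 difference from intact was as narrow as −0.26 to 0.12 (*Col25a1*, POA, 14 days) and as wide as −1.40 to 0.78 (*Crym*, PH, 14 days). Changes of any size within such an interval are not excluded. The intervals are not adjusted over all genes. *Rax* lies near the floor.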

Other observations

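Among the other cell types, genes of endothelial cells were the nearest to a call. All 6 had positive estimates against intact at 4 months in both regions, with median log2 differences of 0.40 for PH libraries and 0.26 for POA libraries. The VEGF receptor genes *Kdr* and *Flt1* were highest, at 0.59 for both in PH libraries (SE 0.13 and 0.14, limma, adjusted *P* = 0.162 and 0.225) and at 0.65 and 0.41 in POA libraries (SE 0.17 and 0.09, adjusted *P* = 0.208 and 0.146). At 14 days the medians were 0.20 and 0.09.

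Pituitary hormone genes varied widely between libraries in some groups. In the POA at 14 days, growth hormone (*Gh*) was at 3.17 and prolactin (*Prl*) at 2.53 on the log2 scale against intact (SE 1.17 and 1.25, limma, adjusted *P* = 0.799 and 0.815), with a median of 1.72 over 5 genes, and the summed signal of the list ran from 266 to 7076 in that group and from 186 to 1776 in intact. At 4 months the POA median was −0.19, and the PH medians were 0.42 and −0.88 over 4 genes. Of 6 neuropeptide genes of the arcuate nucleus, 0 were positive in the POA at 4 months (median −0.35), with *Cartpt* at −0.55 (SE 0.18, limma, adjusted *P* = 0.360). The PH medians were 0.20 and 0.18, and the POA median at 14 days was −0.15. The PH estimates differed in sign, with 4 of 6 positive at 14 days and 3 of 6 at 4 months. The largest PH differences were 0.58 for *Tac2* and −0.57 for *Agrp* at 14 days (SE 0.16 and 0.19). At 4 months they were 0.56 for *Cartpt* and −0.52 for *Agrp* (SE 0.16 and 0.18). Proopiomelanocortin (*Pomc*), which the pituitary also makes, was at 2.26 (SE 0.74) in the POA at 14 days.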
